A study of Mus musculus with 4 samples.

Results

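The 6 genes described here, Igfbp2 to Igfbp7, encode insulin-like growth factor (IGF) binding proteins of the mouse ascending aorta. They were chosen by name, with earlier results of these data in view, out of 18109 genes common to the libraries, and all 6 are listed in each library. Their levels, the shares of cells that hold them and their co-detection are therefore given as descriptions, with no test. Cells came from male Mef2c-mTmG mice, whose mTmG reporter changes colour in cells where Cre recombinase has acted and in their descendants. The strain name carries Mef2c, and the labels say no more of the driver. Live single cells were sorted on this lineage label and captured on the 10x 3′ system, which counts unique molecular identifiers (UMIs), that is, captured transcripts. The study asked how cells derived from the second heart field (SHF) and cells of other origin (labelled CNC, not spelled out) respond to infusion of angiotensin II (AngII), a hormone that constricts vessels and raises blood pressure. The 3 libraries used are SHF at baseline, SHF after 3 days of AngII and CNC after 3 days of AngII. One more labelled sample, of CNC cells at baseline, was not analysed here, and the age and number of mice per library are not given in the sources used here. Each group is 1 library, so there is no replicate error, and treatment and lineage cannot be told apart from library. Every interval below is a 95% interval that covers counting error only.

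Most IGF in tissue fluid and blood is held by binding proteins, which slow its clearance and limit or localise its access to the IGF receptor. Proteases release the growth factor by cutting particular binding proteins, and several members also attach to matrix or cell surfaces. Igfbp7 is a relative that binds IGF weakly and accumulates around blood vessels. In artery walls, smooth muscle cells of the media and fibroblasts of the adventitia both secrete members of the family.

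Cells were classed by a few transcripts. Smooth muscle cells had at least 5 UMIs of Myh11 (smooth muscle myosin) and 0 of Pdgfra (a fibroblast receptor). Fibroblasts had at least 1 UMI of Pdgfra and at most 2 of Myh11. Macrophages had at least 10 UMIs of C1qa, C1qb and Lyz2 together and fewer than 5 of Myh11. Smooth muscle cells numbered 2259 in SHF baseline, 4639 for SHF AngII and 6410 for CNC AngII, and fibroblasts numbered 3938, 2636 and 835. Macrophages numbered 7, 11 and 1759, so only those of CNC AngII are described. The kept cells were 8374, 9274 and 10230 per library, from deposited totals of 92474476, 147854476 and 150954701 UMIs. Between 29 and 34 barcodes were shared by each pair of libraries, at most 0.361% of a library. The classes held the markers of their names, in part by the rule, since Myh11, Pdgfra, C1qa, C1qb and Lyz2 are among the markers. Levels are in CPM (summed UMIs relative to all UMIs of the class in that library, times 1e6). Outside the rule, Acta2 was at 29567 CPM in baseline smooth muscle cells and 584 in baseline fibroblasts, and Dcn at 311 and 15523. C1qc was at 4432 CPM in CNC AngII macrophages and 48.0 in smooth muscle cells there. The 7 smooth muscle markers summed to between 56388.5 and 63727 CPM in smooth muscle cells and to between 1292 and 4047 CPM in fibroblasts. The 7 fibroblast markers summed to 37106, 15101 and 13342 CPM in the fibroblasts of SHF baseline, SHF AngII and CNC AngII. This sum was thus lower in both AngII libraries. Of the 7, only Col1a1 went the other way, at 3692, 4438 and 3826 CPM. Of the baseline smooth muscle cells, 117 of 2259 passed a stricter filter (1500 or more genes detected, no more than 5% of UMIs mitochondrial), against 1582 of 4639 and 2825 of 6410 in the AngII libraries. The part of this difference in the results below was tested only by repeating them in those cells.

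Igfbp2 and Igfbp5 are neighbours on mouse chromosome 1 (GRCm38). Igfbp2 spans 72824503 to 72852474 on the plus strand and Igfbp5 spans 72857932 to 72874884 on the minus strand. The genes point toward each other, with 5457 bases between their 3′ ends. They are shown first because this adjacent pair had opposite cell classes and opposite differences between the SHF libraries. The 100 bases before the annotated start of each gene (RefSeq, GRCm38.p6), at chr1:72824380-72824479 on the plus strand and chr1:72874866-72874965 on the minus strand, are printed 5′ to 3′ with the motifs GGGCGG and TATAAA, on either strand, in capitals.
Igfbp2: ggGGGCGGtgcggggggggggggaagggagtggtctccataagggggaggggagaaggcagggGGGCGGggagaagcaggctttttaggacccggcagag
Igfbp5: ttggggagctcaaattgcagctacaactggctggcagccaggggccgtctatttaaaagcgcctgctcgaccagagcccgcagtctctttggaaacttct
The Igfbp2 window holds 2 matches to GGGCGG, a sequence bound by Sp1-type factors, and the Igfbp5 window holds neither motif. Of 32851 such windows in the table, 24.7% hold GGGCGG and 5.56% hold TATAAA. The windows also differ in base composition, at 71% G and C before Igfbp2 and 55% before Igfbp5. These are descriptions of letters, not of bound sites. A second annotated Igfbp2 start, further into the gene, has neither motif in its window.

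The remaining genes lie apart. Igfbp3 is at chromosome 11, 7206086 to 7213923, on the minus strand, and Igfbp4 at chromosome 11, 99041244 to 99054392, on the plus strand. Igfbp6 is at chromosome 15, 102144362 to 102149511, on the plus strand, and Igfbp7 at chromosome 5, 77349240 to 77408041, on the minus strand. The window before Igfbp4 holds 1 TATAAA and that before Igfbp7 holds 3 GGGCGG. In the annotation, exons of Igfbp7 overlap an exon of Polr2b on the other strand, and the other members overlap no other gene's exons. Whether counting used strand is not given in the sources used here, so reads of that overlap could not be assigned.

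The family was divided by cell class. Levels below are in CPM. The kit tags only the 3′ end of a transcript, so CPM were not divided by length and levels of different genes were compared on this scale. Igfbp7 was the most abundant member in smooth muscle cells and fibroblasts of every library. In smooth muscle cells it was at 8212 CPM in SHF baseline, 9024 for SHF AngII and 8149 for CNC AngII, with at least 1 UMI in 100% of cells. In fibroblasts it was at 5653, 6018 and 6164 CPM. Igfbp7 thus varied least among the 6 genes, across classes other than macrophages as well as across libraries.

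Igfbp2 marked smooth muscle cells, and Igfbp3, Igfbp4, Igfbp5 and Igfbp6 marked fibroblasts. At baseline, Igfbp2 was at 263 CPM (interval 257 to 269) in smooth muscle cells and 0.581 CPM (0.364 to 0.879) in fibroblasts, where 22 UMIs were found in 3938 cells. Igfbp4, which inhibits IGF action until a protease cuts it, was at 195 CPM in baseline smooth muscle cells and 1828 CPM in baseline fibroblasts. Igfbp5, which can attach to matrix, was at 13.7 and 1457 CPM, and Igfbp6, which prefers IGF2, at 1.76 and 345 CPM. Igfbp3, the main IGF carrier of blood, was at 0.643 and 92.1 CPM. In baseline fibroblasts the order from high to low was Igfbp7, Igfbp4, Igfbp5, Igfbp6, Igfbp3 and Igfbp2, and no neighbours in that order had overlapping intervals. In baseline smooth muscle cells it was Igfbp7, Igfbp2, Igfbp4, Igfbp5, Igfbp6 and Igfbp3, again without overlap. In SHF AngII smooth muscle cells Igfbp5 (3.03 CPM, 2.64 to 3.47) and Igfbp6 (2.90 CPM, 2.52 to 3.33) overlapped.

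**Figure D1:**
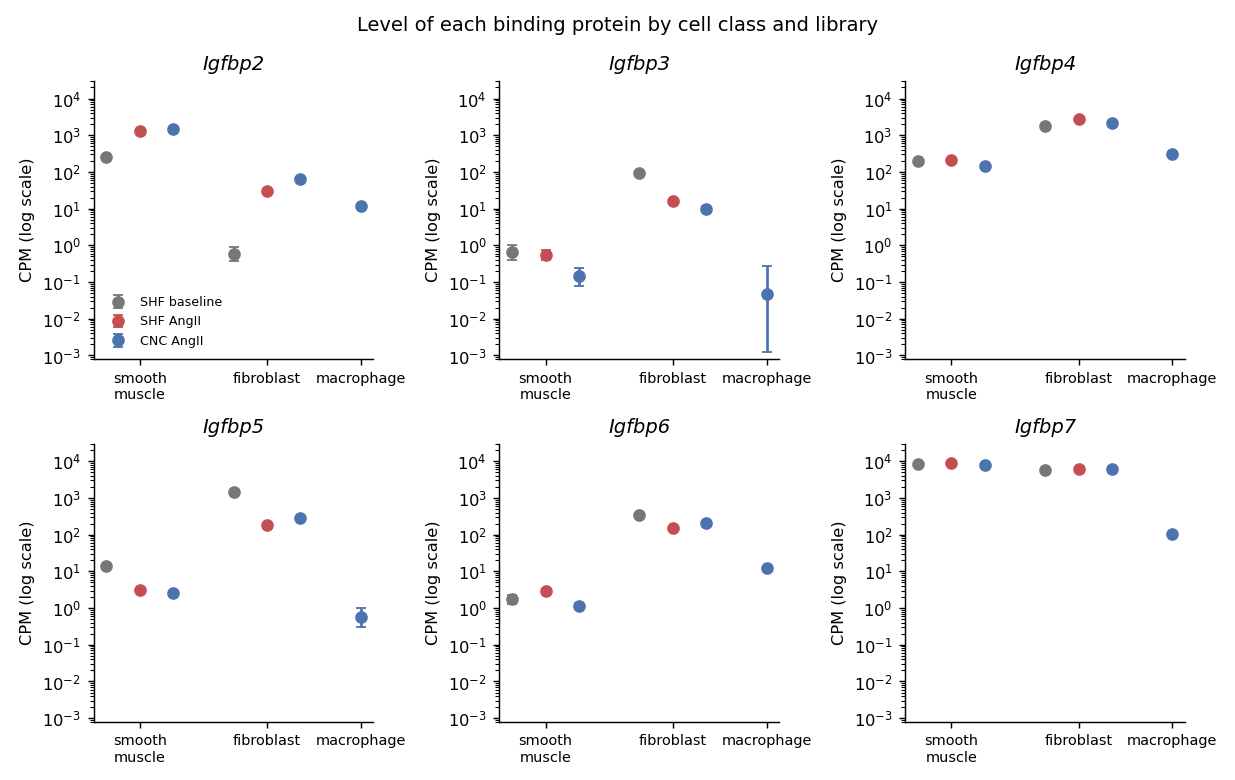
CPM of each gene on a log axis, by cell class, with 1 point per library (gray SHF baseline, red SHF AngII, blue CNC AngII) and 95% Poisson intervals, which are smaller than the point where not visible. Igfbp2 is highest in smooth muscle cells, Igfbp3 to Igfbp6 in fibroblasts, and Igfbp7 lies between 5653 and 9024 CPM in both classes.

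Summed over all 6 genes, the family made up 8686, 10552 and 9740 CPM of smooth muscle UMIs and 9377, 9090 and 8927 CPM of fibroblast UMIs in SHF baseline, SHF AngII and CNC AngII. Their sum therefore differed little between smooth muscle cells and fibroblasts and between libraries, whereas its make-up differed more. Igfbp7 supplied 94.5% of the family's UMIs in baseline smooth muscle cells and 85.5% and 83.7% in the AngII libraries, while Igfbp2 supplied 3.03%, 12.4% and 14.8%. In fibroblasts Igfbp5 supplied 15.5% at baseline, 1.96% for SHF AngII and 3.12% for CNC AngII, and Igfbp4 supplied 19.5%, 29.7% and 24.7%. Because each class is a sum over many cells, a higher share of cells and a higher level per cell are told apart only by the counts per cell that follow.

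In smooth muscle cells the outstanding difference between SHF AngII and SHF baseline was Igfbp2. Its level was 263 CPM at baseline, 1306 CPM (1297 to 1314) for SHF AngII and 1446 CPM (1438 to 1454) for CNC AngII. Both AngII libraries were high and the baseline library was low. The log2 ratio of SHF AngII to baseline, with 1 CPM added to both levels here and in every ratio below, was 2.31 (2.28 to 2.34). Intervals of ratios were computed without the added CPM. Igfbp2 was in 23.7% of baseline smooth muscle cells, 67.4% for SHF AngII and 81.0% for CNC AngII. After every cell was thinned to 3000 UMIs, the shares were 13.3% (11.9 to 14.7), 52.2% (50.8 to 53.7) and 66.0% (64.8 to 67.1), so equal depth left the order in place. A cell type that hardly expresses Igfbp2, the CNC AngII macrophages, had a thinned share of 3.56%, at a median of 11108 UMIs per cell against 13469.5 for smooth muscle cells there.

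The difference in Igfbp2 lay in both the number of cells and the UMIs per cell. Thinned cells with the gene held on average 4.78 Igfbp2 UMIs at baseline, 6.96 for SHF AngII and 6.67 for CNC AngII. Cells with at least 16 UMIs of 3000 made up 0.934% of baseline smooth muscle cells, 6.10% for SHF AngII and 6.20% for CNC AngII. The baseline signal was concentrated in few cells: the 10% of cells with most Igfbp2 held 94.9% of its UMIs, against 54.9% for SHF AngII and 46.0% for CNC AngII. For Igfbp7 the corresponding 10% held 17.1%, 16.7% and 16.5%, and its median was 23, 27 and 25 UMIs per thinned cell. The baseline share for Igfbp2 is bounded by detection, since only 13.3% of thinned cells held it. Igfbp4, with a similar baseline mean (0.613 UMIs per thinned cell, beside 0.633 for Igfbp2), had 52.7% in its corresponding 10%. At baseline the variance over cells divided by the mean was 23.5 for Igfbp2, 2.18 for Igfbp4 and 3.09 for Igfbp7. In SHF AngII and CNC AngII it was 12.5 and 10.4 for Igfbp2 and 3.25 and 2.92 for Igfbp7. Igfbp2 was thus patchy among smooth muscle cells and Igfbp7 even.

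**Figure D2:**
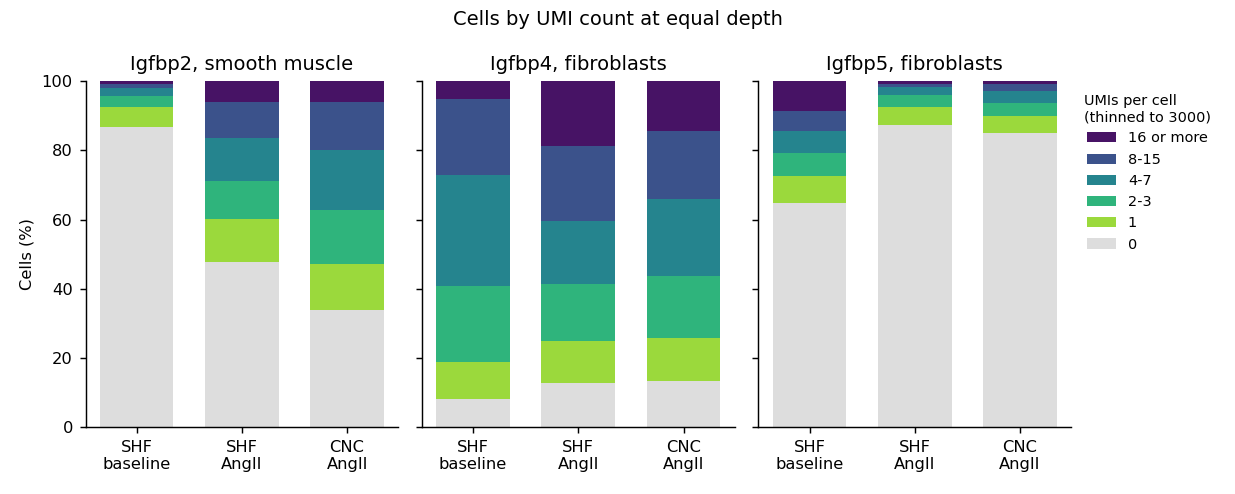
Percent of cells by number of UMIs per cell after thinning to 3000 UMIs, for Igfbp2 in smooth muscle cells and for Igfbp4 and Igfbp5 in fibroblasts, with 1 bar per library. The part of cells with no Igfbp2 UMI is 86.7%, 47.8% and 34.0% from left to right, and the part with no Igfbp5 UMI is 64.9%, 87.2% and 84.9%.

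Of the other members in smooth muscle cells, Igfbp4 and Igfbp7 reached the minimum mean level of 10 CPM used for counts. Igfbp4 was at 195, 216 and 141 CPM in SHF baseline, SHF AngII and CNC AngII. Its log2 ratio for SHF AngII against baseline was 0.15 (0.11 to 0.19) in all cells and -0.58 in those that passed the stricter filter. The ratio was -0.61 (-0.65 to -0.58) for CNC AngII against SHF AngII. Igfbp7 had ratios of 0.14 and -0.15. Igfbp5 was at 13.7, 3.03 and 2.65 CPM, lower in both AngII libraries but under the minimum mean level. Some fibroblast markers were also lower there in these smooth muscle cells. Dcn was at 311, 168 and 21.8 CPM and Pi16 at 18.3, 11.1 and 5.77 CPM, whereas Col1a1 was higher, at 709, 1100 and 1138 CPM. The part of fibroblast RNA in the smooth muscle Igfbp5 values was not tested. The lowest members, Igfbp3 and Igfbp6, stayed between 0.145 and 2.90 CPM.

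Counted at 2-fold, 1 of the 3 members above the minimum (Igfbp2) was higher after AngII in the SHF libraries and 0 were lower. Over all 6997 genes above the minimum in that comparison, 2.87% were at least 2-fold higher and 3.5% at least 2-fold lower. The members' median log2 ratio was 0.15, beside -0.10 over all genes. Under scaling by trimmed mean of M values (TMM), which sets libraries level over most genes, the median over all genes was 0.07, and 4.22% were higher and 2.23% lower. Igfbp2 stayed the single member past 2-fold there. Between the lineages under AngII, 0 of 3 members were past 2-fold in either direction, beside 0.454% higher and 0.352% lower of 6823 genes. The median there was -0.15 for the members and 0.01 over all genes. Both comparisons use the SHF AngII library, so they are not independent of each other.

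Macrophage markers (8 genes) summed to 2.61 CPM in SHF baseline smooth muscle cells, 1.40 for SHF AngII and 365 for CNC AngII. Lineage and library cannot be told apart in the CNC AngII value. Cardiomyocyte markers, mostly Tnnt2, summed to 754, 482 and 54.6 CPM. Tnnt2, a troponin, was in 49.9%, 38.1% and 9.71% of thinned smooth muscle cells. Split by its detection, Igfbp2 was at 281 CPM with and 245 without Tnnt2 at baseline, 1019 and 1451 in SHF AngII, and 1416 and 1449 in CNC AngII. Tnnt2-positive cells were lower in SHF AngII, slightly higher at baseline and nearly level in CNC AngII. Within Tnnt2-positive cells the log2 ratio of SHF AngII to baseline was 1.85 (1.81 to 1.91), and within Tnnt2-negative cells 2.56 (2.52 to 2.62). Against the CNC AngII library, the ratio to SHF AngII was 0.47 (0.44 to 0.51) with Tnnt2 and -0.00 (-0.02 to 0.01) without it.

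Spp1 (osteopontin, a secreted protein of modulated smooth muscle cells) marked smooth muscle cells with less Igfbp2. In SHF AngII the 200 cells with Spp1 had 673 CPM of Igfbp2 and those without had 1349. In CNC AngII the 680 cells with Spp1 had 786 CPM and the rest 1555. The log2 ratios were -1.001 (-1.06 to -0.95) and -0.98 (-1.01 to -0.96). Cells with Spp1 were deeper, at medians of 20385.5 and 18899.5 UMIs, against 13100 and 12974 without it, and the part of depth in this difference was not tested.

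In fibroblasts Igfbp5 was the member with the lowest ratio of SHF AngII to baseline. Igfbp5 was at 1457 CPM (1445 to 1470) in SHF baseline, 178 CPM (174 to 182) for SHF AngII and 279 CPM (269 to 288) for CNC AngII. Baseline alone was high. The log2 ratio of SHF AngII to baseline was -3.02 (-3.07 to -2.998). The share of fibroblasts with Igfbp5, thinned to 3000 UMIs, was 35.1% (33.5 to 36.7), 12.8% (11.6 to 14.2) and 15.1% (12.7 to 17.8), and the unthinned shares were 41.6%, 21.1% and 25.9%. At that depth 8.63% of baseline fibroblasts held at least 16 Igfbp5 UMIs, against 0.811% and 0.983% in the AngII libraries. Among members, Igfbp5 was thus lower both in cells detected and in UMIs at the upper end.

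Igfbp3 and Igfbp6 were lower too. Igfbp3 was at 92.1 CPM (89.1 to 95.2) at baseline, 16.7 CPM (15.5 to 17.9) for SHF AngII and 9.90 CPM (8.15 to 11.9) for CNC AngII, with a log2 ratio of -2.40 (-2.58 to -2.35) between the SHF libraries. It was the sparsest fibroblast member, found in 11.1% of baseline fibroblasts and 5.99% and 3.47% in the AngII libraries. Igfbp6 was at 345 CPM (340 to 351), 150 CPM (146 to 154) and 208 CPM (199 to 216), with a ratio of -1.20 (-1.25 to -1.16). Under TMM scaling this ratio was -0.92, inside 2-fold. Unlike Igfbp5, Igfbp6 was in a larger unthinned share of AngII fibroblasts (36.8%, 39.6% and 43.2%), and at equal depth the shares were 28.7%, 21.1% and 27.5%.

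Igfbp4 was higher in the AngII fibroblasts, inside 2-fold. It was at 1828 CPM (1815 to 1842) in SHF baseline, 2696 CPM (2681 to 2712) for SHF AngII and 2202 CPM (2175 to 2229) for CNC AngII, a log2 ratio of 0.56 (0.55 to 0.57) between the SHF libraries. Its distribution broadened: thinned fibroblasts with at least 16 UMIs were 5.32% at baseline, 18.6% for SHF AngII and 14.4% for CNC AngII, while those with none were 8.21%, 12.9% and 13.4%. More thinned cells lay at both ends in the AngII libraries. Without thinning, the share of fibroblasts with Igfbp4 was 96.4%, 97.4% and 96.0%. Igfbp7 differed by 0.09 (0.08 to 0.10).

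Igfbp2 was also higher in AngII fibroblasts, from a level near 0. It had 22 UMIs at baseline (0.581 CPM), 1361 UMIs for SHF AngII (30.4 CPM, 28.8 to 32.0) and 737 UMIs for CNC AngII (65.1 CPM, 60.5 to 70.0), a log2 ratio of 4.31 between the SHF libraries. Cells with it held a median of 1 UMI, and single cells held up to 286. Smooth muscle transcripts moved with it. Fibroblast Igfbp2 was 0.221%, 2.33% and 4.50% of the smooth muscle level in SHF baseline, SHF AngII and CNC AngII, while Acta2 was 1.97%, 5.56% and 5.996% and Tagln 2.82%, 8.45% and 9.77%. Cnn1 was 0.420%, 0.785% and 0.837%. When 5% of each library's overall profile was subtracted from the class, no Igfbp2 was left in the fibroblasts of either SHF library, and the ratio was 0. The part of free RNA in this member's fibroblast values was not tested further.

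**Figure D3:**
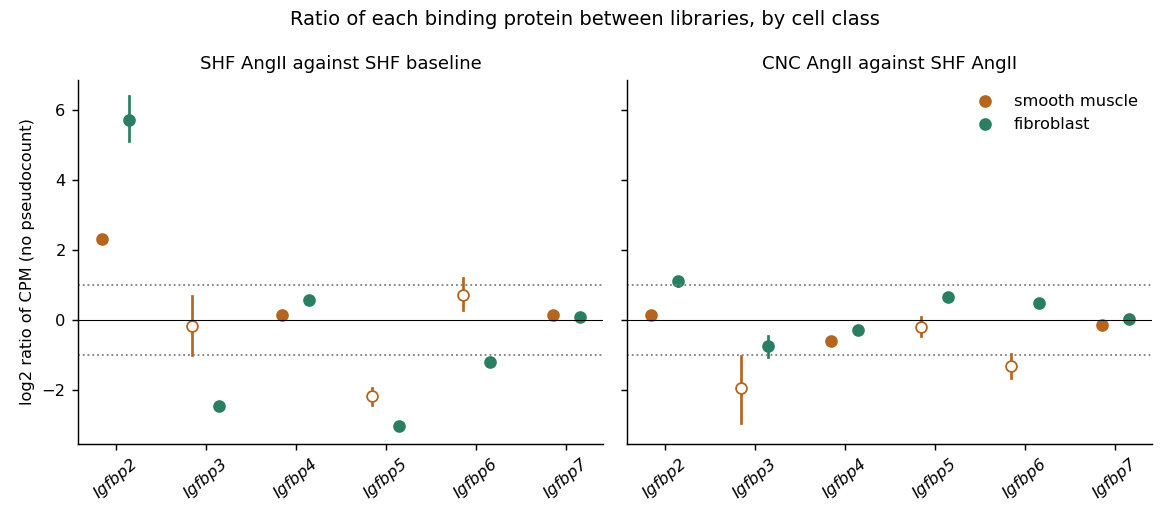
log2 ratio of CPM between libraries for each gene in smooth muscle cells (brown) and fibroblasts (green), without the added CPM, with 95% intervals. Open points are members under the minimum mean of 10 CPM, and dotted lines mark 2-fold. Left, SHF AngII against SHF baseline, where Igfbp2 is above both lines and Igfbp3, Igfbp5 and Igfbp6 of fibroblasts are below; right, CNC AngII against SHF AngII, where every filled point except fibroblast Igfbp2 lies within 2-fold.

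All 6 members reached the minimum in fibroblasts. Between SHF AngII and SHF baseline 1 was at least 2-fold higher (Igfbp2) and 3 were at least 2-fold lower (Igfbp3, Igfbp5 and Igfbp6), beside 4.63% higher and 10.7% lower of 7692 genes. The median log2 ratio was -0.55 for the members and -0.21 over all genes. Under TMM scaling the median over all genes was 0.06, with 7.88% higher and 5.56% lower, and Igfbp6 was the member no longer past 2-fold. Between CNC AngII and SHF AngII, 1 member was higher (Igfbp2, ratio 1.08, 0.97 to 1.23) and 0 were lower, beside 0.358% higher and 0.151% lower of 7266 genes. With 10 CPM added in place of 1, that ratio was 0.90, inside 2-fold. In this lineage comparison Igfbp5 had a ratio of 0.64 (0.58 to 0.70), Igfbp6 of 0.47 (0.40 to 0.54), Igfbp4 of -0.29 (-0.31 to -0.27), Igfbp3 of -0.70 (-1.05 to -0.46, and 0.21 with the classes drawn from thinned cells) and Igfbp7 of 0.03 (0.02 to 0.05). The medians were 0.25 for the members and 0.01 over all genes.

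Fibroblast members differed by subset. Pi16 marks adventitial fibroblasts of a progenitor-like kind, and 78.4%, 71.8% and 69.5% of thinned fibroblasts had it in SHF baseline, SHF AngII and CNC AngII. Igfbp5 followed it. Baseline fibroblasts with Pi16 had 1840 CPM of Igfbp5 and those without had 189. In SHF AngII the values were 243 and 33.3, and in CNC AngII 386 and 58.6. The lower level of Igfbp5 in SHF AngII was present on both sides of the split, at -2.92 (-2.96 to -2.89) with Pi16 and -2.47 (-2.66 to -2.35) without. The ratio over all fibroblasts was -3.02.

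Igfbp3 had the opposite subset at baseline. It was at 40.5 CPM with Pi16 and 275 CPM without it, but at 13.0 and 25.1 in SHF AngII and 9.89 and 10.0 in CNC AngII. Baseline fibroblasts without Pi16 were thus the main Igfbp3 cells, and the contrast between subsets was smaller or gone in the AngII libraries. Igfbp6 followed Pi16 in each library, at 403 against 151 CPM, 176.5 against 88.9 and 250 against 113. Igfbp4 was higher with Pi16, by little at baseline (1872 against 1694 CPM) and by more in SHF AngII (2928 against 2176) and CNC AngII (2538 against 1510).

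**Figure D4:**
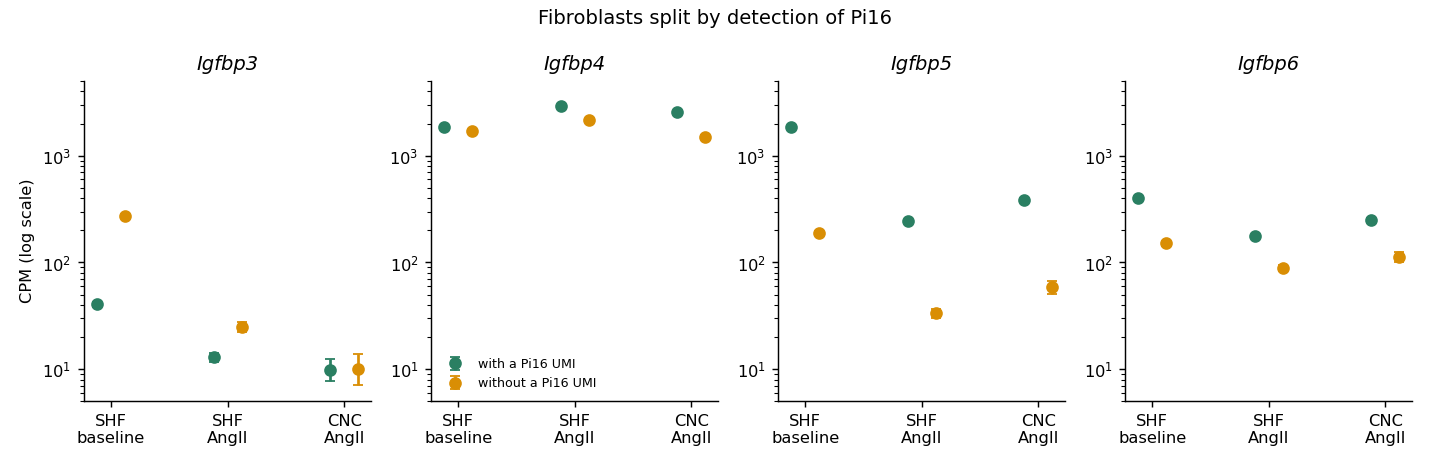
CPM on a log axis of Igfbp3, Igfbp4, Igfbp5 and Igfbp6 in fibroblasts with (green) and without (orange) a Pi16 UMI among 3000, per library, with 95% Poisson intervals. Igfbp5 and Igfbp6 are higher with Pi16 in each library, and Igfbp3 is lower with Pi16 in both SHF libraries.

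Cthrc1, a secreted protein of matrix-producing fibroblasts, was in 5.51% of baseline fibroblasts, 42.9% for SHF AngII and 37.7% for CNC AngII. The 198 baseline fibroblasts with it had the highest Igfbp5 of any subset examined, 4009 CPM (3929 to 4090), beside 1299 CPM without Cthrc1. In SHF AngII the values were 199 and 155 CPM, so the Cthrc1-positive subset differed more between the SHF libraries (-4.32, -4.38 to -4.28) than the rest (-3.06, -3.11 to -3.01). Igfbp7 was lower with Cthrc1 in every library, at 3809 against 5752 CPM, 4627 against 7536 and 5154 against 6993. Fibroblasts with Comp or Chad, cartilage matrix genes, had less Igfbp5 than the rest at baseline (669 against 1543 CPM) and more in SHF AngII (288 against 163).

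In macrophages of CNC AngII the family was small, at 427 CPM in all, and its leading member was Igfbp4 with 70.2% of the family's UMIs. Igfbp4 was at 300 CPM (293 to 308), Igfbp7 at 102 CPM (98.1 to 107), Igfbp6 at 12.5 CPM (11.04 to 14.1) and Igfbp2 at 11.7 CPM (10.3 to 13.3), the last pair with overlapping intervals. Igfbp5 and Igfbp3 were at 0.580 and 0.0483 CPM. Transcripts of other cells were found in macrophages at a low level. Levels were set against the level over all barcodes of the library, macrophages among them. On that scale Igfbp7 was 1.54%, Igfbp2 1.14%, Igfbp5 1.40% and Igfbp3 2.90%. Genes of smooth muscle cells were at 0.732% (Tagln), 1.10% (Acta2) and 1.31% (Cnn1). Genes of fibroblasts were at 2.30% (Col1a1), 2.39% (Dcn) and 3.37% (Lum). Igfbp4 stood at 75.4% and Igfbp6 at 46.8% of that level. Igfbp4 and Igfbp6 were thus far above those genes on this scale, and the other 4 members were near them. The source of any of these transcripts in macrophages was not tested.

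Macrophage Igfbp4 differed by subset. It was at 342 CPM in cells with Lyve1, a marker of resident perivascular macrophages, and 192 CPM in those without. Cells with Ccr2, the receptor of monocyte-derived macrophages, had 185 CPM and those without had 322. Igfbp6 ran the other way, at 26.5 CPM with Ccr2 and 9.94 without, and at 9.58 with Lyve1 and 20.2 without. Igfbp4 was found in 82.5% of macrophages and in 51.9% after thinning, against 26.1% of thinned smooth muscle cells of the same library.

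Members also differed in whether they occurred in the same cells. Expected counts assume independence within a class, and cells were thinned to 3000 UMIs. In baseline fibroblasts Igfbp5 and Igfbp6 were together in 525 cells where 361 were expected, a ratio of 1.45. In SHF AngII the ratio was 1.71 (120 cells) and in CNC AngII 1.15 (39 cells). In CNC AngII the intervals overlapped: Igfbp6 was in 31.7% (23.6 to 40.7) of fibroblasts with Igfbp5 and 26.8% (23.5 to 30.2) without. Igfbp3 and Igfbp6 were together at 1.52 and 2.03 times the expected number in SHF baseline and SHF AngII. Igfbp3 and Igfbp5 were together less often than independence gives, with 57 baseline cells where 102 were expected (0.558) and 2 SHF AngII cells where 7.18 were expected (0.279). In the SHF libraries Igfbp6 was thus above the expected number with both genes, and those genes were below it with each other.

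**Figure D5:**
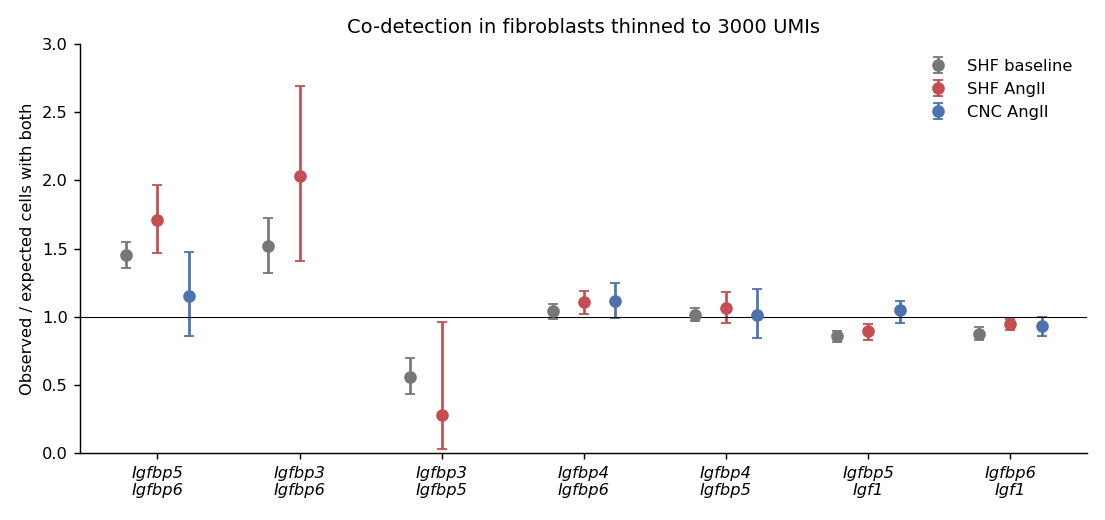
Observed over expected number of fibroblasts holding both genes of a pair after thinning to 3000 UMIs, per library, with intervals from the exact binomial interval of the share of cells with the second gene among those with the first. Igfbp5 with Igfbp6 and Igfbp3 with Igfbp6 lie above 1 in both SHF libraries, and Igfbp3 with Igfbp5 lies below 1; pairs of Igfbp3 in CNC AngII had too few cells to plot.

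Igfbp4 was in most fibroblasts, so its pairs lay near expectation. Among baseline fibroblasts without Igfbp4, Igfbp6 was in 15.3%, against 29.9% of those with it. In smooth muscle cells Igfbp2 and Igfbp4 were together at 1.23 times the expected number at baseline, 0.994 times in SHF AngII and 1.09 times for CNC AngII. Cells with at least 3 members made up 6.94%, 19.2% and 19.0% of smooth muscle cells, 49.8%, 30.9% and 41.2% of fibroblasts and 1.26% of macrophages. In smooth muscle cells of AngII libraries more cells thus held several members, and in fibroblasts fewer did.

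The genes whose counts followed each member most closely were sought in the class where the member was highest, by Pearson correlation over cells within each library, averaged over 3 libraries. These are descriptions, since cells share a library and its depth. Igfbp5 followed Pi16 (mean r = 0.36), Ifi27l2a (0.33) and Cd248 (0.31), over 3593, 2590 and 814 fibroblasts. The libraries differed in these values and in their order. In SHF baseline, SHF AngII and CNC AngII, r was 0.51, 0.32 and 0.26 for Pi16 and 0.53, 0.29 and 0.18 for Ifi27l2a. For Cd248 it was 0.59, 0.22 and 0.13. Igfbp6 followed Clec3b (0.33), Tnxb (0.30) and Cilp (0.27), and Igfbp4 followed Serping1 (0.40), C3 (0.37) and Gpx3 (0.37), of which Serping1 and C3 belong to the complement system. Igfbp7 followed Bgn (0.25), a matrix proteoglycan, then Mfge8 and Ccn3 (both 0.19), in smooth muscle cells. Igfbp2 followed Eln (0.21), which encodes elastin, then Anxa3 (0.20) and Ptprz1 (0.19). By library, in the same order, r was 0.11, 0.29 and 0.22 for Eln and 0.27, 0.18 and 0.12 for Ptprz1. Genes were named only for members whose closest gene had a mean r of at least 0.2. For Igfbp3 the closest was at 0.18, so none is named.

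Other genes of the IGF pathway were read from a list of 29. Among the ligands, Igf1 was highest in fibroblasts, at 675, 1062 and 1115 CPM in SHF baseline, SHF AngII and CNC AngII. It was at 17.8, 24.2 and 14.7 CPM in smooth muscle cells and 224 CPM in CNC AngII macrophages. Igf2 was at most 2.72 CPM in any of these classes. The receptor Igf1r was at 146, 91.8 and 91.7 CPM in smooth muscle cells and 84.2, 37.0 and 35.0 CPM in fibroblasts. Igf1 and most binding proteins were thus highest in fibroblasts, whereas Igf1r was higher in smooth muscle cells than in fibroblasts. The other listed receptors were split. In SHF baseline and SHF AngII, Igf2r was at 65.1 and 45.2 CPM in fibroblasts and 23.2 and 35.2 CPM in smooth muscle cells. Insr was at 14.1 and 6.65 CPM in fibroblasts and 35.4 and 19.4 CPM in smooth muscle cells. Of the baseline fibroblasts with Igf1, 30.2% held Igfbp5, against 45.1% of those without it, at equal depth. In SHF AngII the shares were 11.5% and 19.6%, and in CNC AngII 15.8% and 11.7%. Fibroblasts holding both were 0.859 and 0.894 times the number expected under independence in the SHF libraries, with no test of the difference, and the CNC AngII intervals overlapped.

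The list holds 6 proteases and protease inhibitors, of which 4 reached the minimum level in fibroblasts. Pappa, whose product cuts Igfbp4, was at 7.05, 26.1 and 24.3 CPM (log2 ratio of SHF AngII to baseline 1.75, 1.69 to 2.08). Adam12, which cuts Igfbp3 and Igfbp5, was at 0.581, 29.3 and 21.9 CPM (4.26). Htra1, which cuts Igfbp5, was at 386, 118 and 190 CPM (-1.70, -1.76 to -1.67), and Stc2, an inhibitor of Pappa, at 56.3, 21.8 and 15.9 CPM (-1.33). Under the minimum were Pappa2, at 3.01 and 4.06 CPM in SHF baseline and SHF AngII (0.34), and Stc1, at 2.93 and 3.77 CPM (0.28). In fibroblasts 2 of the 21 listed genes above the minimum were at least 2-fold higher in SHF AngII (Pappa and Adam12), beside 4.63% of all genes. Another 6 were at least 2-fold lower (Igf1r, Kazald1, Htra1, Stc2, Irs1 and Foxo1), beside 10.7% of all genes. The list was not recounted under TMM scaling, where 7.88% of all genes were higher and 5.56% lower. The listed genes' median was -0.52. In smooth muscle cells 0 of 17 were higher and 1 was lower, Irs2, an insulin and IGF receptor substrate (-1.69, -1.79 to -1.64), beside 2.87% higher and 3.5% lower over all genes. Between the AngII libraries, 1 of 19 in smooth muscle cells was higher (Esm1, 1.45, 1.46 to 1.80), and 0 were lower, beside 0.454% and 0.352% over all genes. In fibroblasts 0 of 20 were past 2-fold, beside 0.358% higher and 0.151% lower. Htra1 in smooth muscle cells was at 439, 643 and 744 CPM, so the same protease was higher there in the AngII libraries and lower in fibroblasts.

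Members near the class limits were compared without a test. Fibroblasts with exactly 1 Pdgfra UMI had 1380 CPM of Igfbp5 at baseline and 173 in SHF AngII. Cells just outside the class, with 0 Pdgfra UMIs, at most 2 of Myh11 and no macrophage or endothelial call, had 1158 and 235. The lower level in SHF AngII was thus found on either side of the limit. Smooth muscle cells of SHF AngII with 5 to 6 Myh11 UMIs had 270 CPM of Igfbp2, and cells just outside, with 3 to 4 and no Pdgfra or macrophage call, had 443. Both were below the class level of 1306 CPM.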

How the data were processed

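The deposited files of 3 libraries hold the authors' raw UMI counts per gene and cell barcode, not normalised. The submitters' processing notes name fastp, STAR 2.5, HTSeq 0.6.1 and mm10. Cells needed 500 genes or more and no more than 10% of UMIs from mitochondrial genes, and doublets (205, 216 and 241 cells) were marked with Scrublet in scanpy 1.11.5 and left out. The baseline library lists 18760 genes and each AngII library 32285. The baseline file uses older gene names, of which 515 were matched through unique synonyms. Counts were summed per class and library and set on the CPM scale. Ratios are log2 with 1 CPM added. Calls are 2-fold, over genes with a mean of at least 10 CPM. Intervals are exact Poisson, conditional binomial or Clopper-Pearson. Thinning to 3000 UMIs used seed 1 and left out shallower cells, at most 345 of a class. The ratio, interval and thinning code was tested on simulated data. TMM factors came from edgeR. No test was run, since each group is 1 library. The 6 genes, the pathway list, the markers and the subset genes were chosen with earlier results of these data known. All 6 members and the list are reported by counts, and the nearest genes are the 3 with the highest mean correlation.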

Additional observations from a re-analysis of the deposited data

How the results depend on the processing

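No paired analysis was possible because each group is 1 library. With 1 library per group no library could be left out either, and differences between mice or preparations have no estimate. The count of members past 2-fold kept within 1.5 times of its value in 43 of 48 alternatives. By this rule the loss of Igfbp6 from the fibroblast count under TMM scaling still counts as kept. The values themselves moved more often. Log2 ratios of members left their main interval in 96 of 216 alternatives, with 0 reversals among those past 2-fold. Shares of cells left theirs in 105 of 126 alternatives, all of them thinning depths. In smooth muscle cells, SHF AngII against SHF baseline, it was 2 in place of 1 under the stricter cell filter, with doublets kept, and when mitochondrial and ribosomal genes were left out of the totals, because Igfbp5 then reached the minimum mean level. In fibroblasts, CNC AngII against SHF AngII, it was 0 in place of 1 with 10 CPM added, where the Igfbp2 ratio came inside 2-fold. It was also 0 with 5% of the library profile subtracted, where Igfbp2 fell under the minimum mean level. Over the alternatives this ratio of Igfbp2 ranged from 0.90 to 3.92. The upper value came after the subtraction, which left no Igfbp2 in SHF AngII fibroblasts. It therefore rests on the 1 CPM added and gives no size of the difference. Igfbp2 in smooth muscle cells, SHF AngII against baseline, ranged from 2.27 to 2.55, and was 2.46 in the 117 baseline cells that passed the stricter filter. Igfbp4 there ranged from -0.58 (that filter) to 0.32. In fibroblasts Igfbp5 ranged from -3.20 to -2.69, Igfbp3 from -2.57 to -1.94, Igfbp6 from -1.33 to -0.92 and Igfbp2 from 0 (after the subtraction) to 4.54. Co-detection of Igfbp2 and Igfbp6 in CNC AngII fibroblasts, 0.454 times expected, was 1.19 at 1500 UMIs. Without a minimum level, the share of all genes past 2-fold went from 0.806% to 1.73% in smooth muscle cells between the AngII libraries; the cause was not tested.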
